A study of Mus musculus with 2 samples.

Results

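The cells described here are *Zbtb16* innate-like T cells: single T cells that held 2 or more UMIs (distinct captured molecules) of *Zbtb16* (ENSMUSG00000066687, chromosome 9, 48654297 to 48836222, GRCm38). They were chosen on measured values. From barcodes with 500 or more genes and at most 10% mitochondrial UMIs, cells were kept that had a *Cd3d*, *Cd3e* or *Cd3g* UMI, 2 or more *Zbtb16* UMIs, no *Foxp3*, *Cd8a* or *Cd8b1* UMI, at most 1 *Cd79a* UMI and at most 2 *Lyz2* UMIs. This left 72 cells of a *Foxp3Cre* WT mouse and 86 cells of a DKO-severe mouse, 158 of 13769 retained cells. Cells that met all other conditions and had no *Zbtb16* UMI, 2987 in WT and 3133 in DKO-severe, are called *Zbtb16*-negative cells below.

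TCRβ+ cells of spleen, cervical nodes and inguinal nodes were pooled for each of 2 mice, both 14 weeks old. The WT mouse carries Cre at *Foxp3* without floxed *Tet* alleles. The DKO-severe mouse carries the same Cre with floxed *Tet2* and *Tet3*, so deletion is directed to cells that express or once expressed *Foxp3*, and the mouse had severe disease. With 1 mouse per genotype there is no error between animals: no test was run, cells are not replicates, and genotype, animal and disease cannot be told apart. Every interval below is a 95% exact interval and covers counting error only.

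*Zbtb16* encodes PLZF, a zinc finger factor that directs the development of T cells with innate-like behaviour. These include invariant NKT cells, whose receptor pairs a *Trav11* and *Traj18* alpha chain with a few beta chains, mucosal-associated invariant T cells and some gamma delta T cells. Such cells leave the thymus already in an effector state, sit largely in tissues, and fall into type 1, type 2 and type 17 classes by their factors and cytokines.

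The sort selected the beta chain, so 2 other sets of receptor transcripts show what else the cells carried. Gamma constant genes are shown first because a large share of the cells held them. The lines give the first 90 bases, 1 read length, of the first constant exon of each gene in GENCODE M21 on GRCm38 (*Tcrg-C1*, chr13:19214103-19214192, plus strand; *Tcrg-C2*, chr13:19307462-19307551, minus strand; *Tcrg-C4*, chr13:19344558-19344647, plus strand), and capitals mark bases at which the 3 genes are not all the same.
Tcrg-C1: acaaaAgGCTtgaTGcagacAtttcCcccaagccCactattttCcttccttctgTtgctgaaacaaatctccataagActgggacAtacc
Tcrg-C2: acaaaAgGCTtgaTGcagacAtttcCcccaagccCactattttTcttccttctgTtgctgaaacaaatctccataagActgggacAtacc
Tcrg-C4: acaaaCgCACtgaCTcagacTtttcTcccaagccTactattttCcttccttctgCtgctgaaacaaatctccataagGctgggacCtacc

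Over the 330 bases of that exon, *Tcrg-C1* was 82.1% and *Tcrg-C2* 81.5% identical to *Tcrg-C4*. Of all 90-base windows of its transcript, 100% for *Tcrg-C4*, 97.5% for *Tcrg-C2* and 88.9% for *Tcrg-C1* occur in no other receptor gene, so reads of the 3 can be told apart for most positions. *Trav11* is different. The 90 bases below, an exon stretch of *Trav11* (chr14:53519569-53519658, plus strand), are also found without a difference in *Trav11d* (chr14:52824623-52824712, plus strand).
Trav11: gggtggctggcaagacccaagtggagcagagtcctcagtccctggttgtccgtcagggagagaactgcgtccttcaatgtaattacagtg

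The 2 genes are the same over 342 of 342 bases, and only 1 of 254 windows of *Trav11* (0.394%) and 0 of 253 of *Trav11d* are their own. How reads that fit several genes were counted is not given in the sources used here. A read from either gene could thus go uncounted, and 44 of 128 *Trav* genes have at most 10% own windows, against 0 of 35 *Trbv* genes. A 3' library also reads the far end of a transcript and seldom reaches the V segment.

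The depth of the members set what could be detected. They held a median of 6559.5 UMIs per cell in WT (range 2888 to 20140) and 7795.5 in DKO-severe (4227 to 25866), and 504187 and 794073 UMIs in sum. Median genes per cell were 2490 and 2866. The whole series held 7189 WT and 7161 DKO-severe barcodes with 45294779 and 69692053 UMIs, and no retained barcode occurred in both. The labels give 10000 loaded cells. In 9 WT members and no DKO-severe member, the other hashtag made up more than 10% of hashtag counts, and 5 and 2 members were among the highest 6% of doublet scores. Haemoglobin *Hbb-bs* had 1231 UMIs in WT members, 1227 of them in 1 cell, against 12 UMIs in 11 DKO-severe members.

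At equal depth the shares of cells with 2 or more *Zbtb16* UMIs in the 2 mice were close. Each retained cell was thinned to 3900 UMIs and the whole choice was repeated on thinned counts. In WT 43 of 6182 cells then qualified (0.696%, interval 0.504 to 0.936%), and in DKO-severe 42 of 6223 (0.675%, interval 0.487 to 0.911%), and these intervals overlap over most of their length. Thinning left out 822 WT and 542 DKO-severe cells that were shallower. Without thinning the shares were 1.03% of 7004 cells and 1.27% of 6765 cells. With cells holding a UMI of *Cntn5*, *Ntng1* or *Ralyl* (described below) removed from the thinned cells, they were 0.587% in WT (32 of 5452) and 0.994% in DKO-severe (36 of 3623). Among thinned cells that passed the other conditions, members made up 1.61% in WT (43 of 2673) and 1.17% in DKO-severe (42 of 3589). No *Zbtb16* UMI was held by 2593 of those WT cells and 3466 of those DKO-severe cells. The closeness of the shares does not extend to cells with 1 UMI, of which there were 20 in WT and 97 in DKO-severe before thinning. Before thinning, 3079 WT and 3316 DKO-severe cells passed those conditions. Thinning can remove *Foxp3*, *Cd8a* or *Cd8b1* UMIs, so cells chosen on thinned counts need not all be among the 72 and 86. They are still called members below.

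*Zbtb16* counts per member had a median of 3 in both mice and reached 20 in WT and 36 in DKO-severe. Exactly 2 UMIs, just inside the limit, were held by 27 WT and 39 DKO-severe cells, 3 or more by 45 and 47. Just outside the limit, 20 WT and 97 DKO-severe cells held 1 UMI, with medians of 5142 and 7498 UMIs in all. *Klrb1c* was found in 65.0% and 51.5% of these 1-UMI cells, against 48.1% and 61.5% of cells with 2 and 40.0% and 48.9% of cells with 3 or more. *Cd4* was found in 10.0% and 46.4% of 1-UMI cells, 18.5% and 33.3% of 2-UMI cells and 35.6% and 36.2% of cells with 3 or more. Set beside all members, the 1-UMI cells held *Klrb1c* more often in WT (65.0% against 43.1%) and at a like share in DKO-severe (51.5% against 54.7%), and held *Cd4* less often in WT (10.0% against 29.2%) and more often in DKO-severe (46.4% against 34.9%).

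The name was set beside 4 further markers, which were chosen with earlier results of these data known. *Klrb1c* (NK1.1, a receptor of NK cells and many invariant NKT cells) had a UMI in 31 of 72 WT members (43.1%) and 47 of 86 DKO-severe members (54.7%), against 54 of 2987 (1.81%) and 470 of 3133 *Zbtb16*-negative cells. *Il2rb*, the IL-2 and IL-15 receptor beta chain, was found in 55.6% and 90.7% of members and in 17.1% and 60.1% of *Zbtb16*-negative cells. *Xcl1*, a chemokine of innate lymphocytes, was found in 37.5% and 37.2% of members against 2.21% and 4.31%.

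*Il12rb2*, a chain of the IL-12 receptor, was found in 38.9% and 47.7% of members against 2.44% and 3.89% of *Zbtb16*-negative cells. *Zbtb16*-negative cells had medians of 5007 and 7396 UMIs, below those of members. Among B cells, which should lack the markers, 0 of 14 in WT (median 4603.5 UMIs, upper bound 23.2%) had any of the 4. Of 215 in DKO-severe (median 5205 UMIs) none had *Klrb1c* (upper bound 1.70%), 3.72% *Il2rb*, 0.930% *Xcl1* and 1.40% *Il12rb2*. All 4 markers were thus found in larger shares of members than of DKO-severe B cells. What gave B cells their marker UMIs was not tested.

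The markers did not fall in the same cells throughout. At least 3 of the 4 were found in 25 WT members (34.7%) and 42 DKO-severe members (48.8%), against 0.937% and 2.78% of *Zbtb16*-negative cells. None of the 4 was found in 21 WT members and 7 DKO-severe members. Because the markers were chosen with earlier results known, these shares describe the group and are not a test of its name. Members without any of the 4 rest on *Zbtb16* alone.

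**Figure D1:**
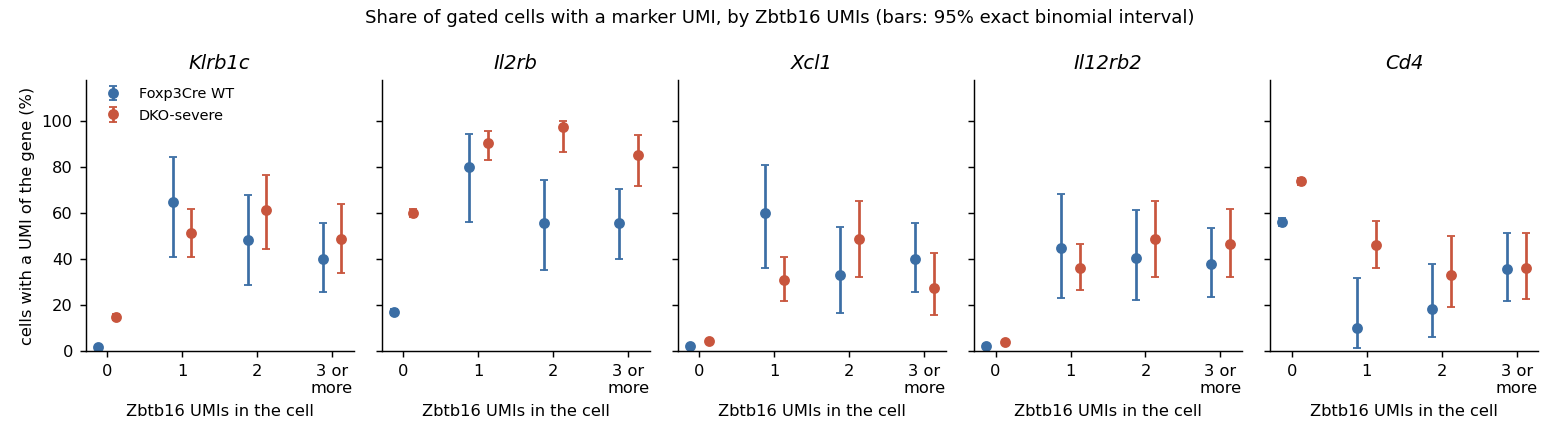
Share of cells (%) with a UMI of *Klrb1c*, *Il2rb*, *Xcl1*, *Il12rb2* and *Cd4* by number of *Zbtb16* UMIs (0, 1, 2, 3 or more) in *Foxp3Cre* WT and DKO-severe, with 95% exact binomial intervals as bars. The 4 markers stand higher in cells with 1 or more *Zbtb16* UMIs than in those with none (*Klrb1c* from 1.81% at 0 to 65.0% at 1 UMI in WT), and *Cd4* stands lower.

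Beyond the markers, the members differed from *Zbtb16*-negative cells in a wide programme. UMIs were summed over cells and scaled to 1000000 (CPM), and 4394 genes with 50 or more UMIs over both sums of members were compared with *Zbtb16*-negative cells of the same mouse. A log2 ratio of 1 or more (2-fold) was reached by 322 genes in WT (7.33%) and 267 in DKO-severe (6.08%), and -1 or less by 84 (1.91%) and 60 (1.37%). In both mice 152 genes were higher and 22 lower. *Zbtb16* chose the members, so these are a description of the cells and not a test.

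The 15 genes highest in both mice were ranked by the lower of their 2 log2 ratios. By that measure *Il17rb*, a receptor chain for IL-25, came first, at 4.46 in WT and 4.79 in DKO-severe. *Atp8a2*, a phospholipid flippase, stood at 5.17 and 4.24, and had 204 UMIs in 35 WT cells and 444 UMIs in 64 DKO-severe cells. Others were *Ccr9*, the gut and thymus homing receptor (3.60 and 3.95), *Itga1*, an integrin of resident cells (4.49 and 3.52), the glycosyltransferase *Gcnt2* (5.28 and 3.84) and *Tmem176a* (4.07 and 3.43). *Tmem273*, *Qpct*, *Serpina3f*, *Nedd4*, *Clnk*, *Lmo4*, *Tmem176b* and *Cd160* made up the rest with *Il12rb2*, with log2 ratios from 3.13 for *Cd160* in DKO-severe to 5.80 for *Tmem273* in WT. Against Cd8-gated cells, chosen by a *Cd8a* or *Cd8b1* UMI, the lowest of the 15 were *Ccr9* in WT (0.31, and 2.69 in DKO-severe) and *Cd160* in DKO-severe (1.10, and 2.47 in WT).

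**Figure D2:**
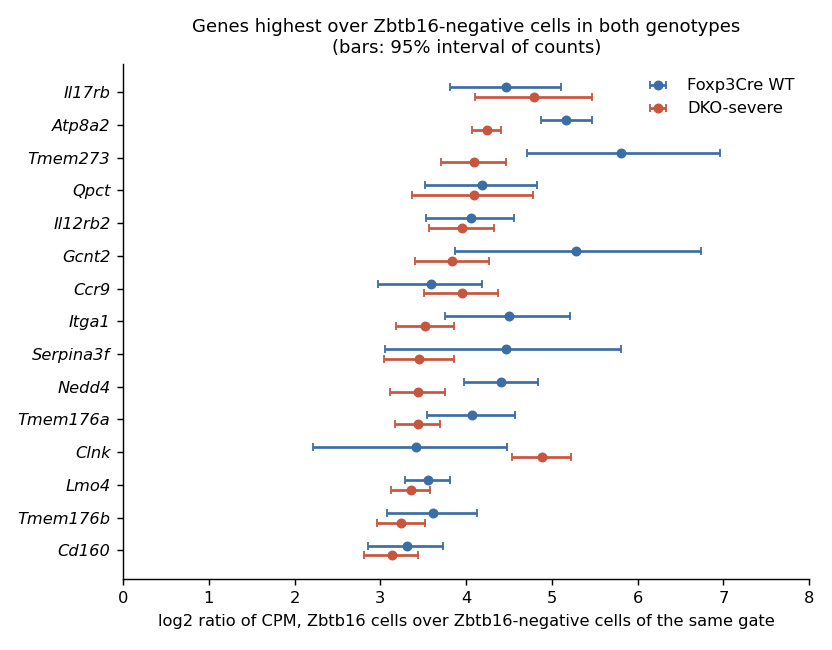
Log2 ratio of CPM in *Zbtb16* cells over *Zbtb16*-negative cells of the same mouse for the 15 genes highest in both mice; points are *Foxp3Cre* WT and DKO-severe and bars are 95% intervals of the counts. All points lie above 3, and *Atp8a2* reads 5.17 in WT and 4.24 in DKO-severe.

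Of the innate-like programme list, 9 of 16 measured genes were 2-fold or more above *Zbtb16*-negative cells in each mouse, and 0 in WT and 2 in DKO-severe were 2-fold or more below. The lower ones were *Id3* (-0.99 in WT and -2.59 in DKO-severe) and the receptor *Slamf6* (-0.22 and -1.09). *Id2*, an inhibitor of E proteins, was found in 72 of 72 WT members (lowest 1, median 7, highest 21 UMIs) and 84 of 86 DKO-severe members (0, 10 and 29). It was 3.42 and 1.94 above *Zbtb16*-negative cells on the log2 scale. *Cxcr6*, a homing receptor of resident lymphocytes, stood 5.17 and 2.31 above, *Rora* 3.33 and 2.29, and *Il18r1* 2.25 and 1.77. *Tbx21* stood 3.34 and 1.78 above, and *Il4* 4.63 and 2.74. The ratios were smaller in DKO-severe where the *Zbtb16*-negative cells of that mouse held more of the gene. *Id2* in those cells was 1.54 and *Cxcr6* 1.91 higher in DKO-severe than in WT on the log2 scale, whereas in members the same differences were 0.06 and -0.96. In WT, cells with 1 *Zbtb16* UMI stood above members for *Id2* (1477 against 1055 CPM), *Cxcr6* (821 against 559) and *Tbx21* (212 against 99.2). They stood below members for *Rora* (319 against 385) and *Il4* (57.9 against 69.4). In DKO-severe, 1-UMI cells stood below members for each of these genes, with *Id2* at 819 against 1098 CPM. High levels of these genes were thus not particular to members.

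Genes of naive and conventional CD4 T cells were lower. *S1pr1*, needed to leave lymph nodes, stood at log2 ratios of -2.50 in WT and -1.48 in DKO-severe, *Tcf7* at -1.61 and -1.45 and *Ccr7* at -2.89 and -2.13. *Cd4* was found in 29.2% and 34.9% of members against 56.3% and 73.8% of *Zbtb16*-negative cells. *Il7r*, the IL-7 receptor, was an exception in the naive-state list, at 1.32 and 1.65, with a median of 7 UMIs per WT member and 10 per DKO-severe member. *Satb1*, a chromatin organiser on the same list, stood at 0.11 and 1.46.

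Receptor transcripts came next. *Trbc1* or *Trbc2* was found in all 158 members and *Trac* in 59 of 72 (81.9%) and 79 of 86 (91.9%), so the beta chain used for the sort was present; B cells also gave *Trbc1* or *Trbc2* in 6 of 14 (42.9%) and 86 of 215 (40.0%). *Trav11* was found in 0 of 72 WT members (upper bound 4.99%) and in 1 of 86 DKO-severe members (1.16%). In *Zbtb16*-negative cells it was found in 1 cell of each mouse, and *Trav11d* had no UMI in members. *Traj18* was found in 6 WT members (8.33%, 3.12 to 17.3%) and 11 DKO-severe members (12.8%, 6.56 to 21.7%), against 3.62% and 7.56% of *Zbtb16*-negative cells, and the members' intervals include those shares.

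Any *Trav* gene was found in 7 WT and 14 DKO-severe members (9.72% and 16.3%) and any *Trbv* gene in 19 and 20 (26.4% and 23.3%). So few cells had their V segment read that the absence of *Trav11* UMIs does not show how many members are invariant NKT cells. *Trbv29* (Vβ7), a beta segment of those cells, was found in 4 WT members (5.56%) and 2 DKO-severe members, against 0.368% and 0.223% of *Zbtb16*-negative cells. *Trbv13-2* (Vβ8.2), another beta segment of those cells, was found in 3 WT members (4.17%) and 7 DKO-severe members (8.14%), against 2.81% and 11.7% of *Zbtb16*-negative cells, so its share in DKO-severe members was the lower of the 2. *Trav1*, the alpha segment of mucosal-associated invariant T cells, was found in 2 and 0 members.

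Gamma constant transcripts were frequent in both mice. *Tcrg-C4* (ENSMUSG00000076757) had a UMI in 10 of 72 WT members (13.9%, 6.87 to 24.1%) and 29 of 86 DKO-severe members (33.7%, 23.9 to 44.7%), with at most 3 and 8 UMIs in a cell. In *Zbtb16*-negative cells the shares were 0.569% and 2.33%, and no B cell had one, which allows up to 23.2% of 14 and 1.70% of 215. Of cells with 1 *Zbtb16* UMI, 4 of 20 in WT and 28 of 97 in DKO-severe (28.9%) had a *Tcrg-C4* UMI. Both shares lie within the members' intervals, so *Tcrg-C4* was not particular to members. Thinned to 3900 UMIs, *Tcrg-C4* was found in 6 of 43 (14.0%, 5.30 to 27.9%) and 11 of 42 members (26.2%, 13.9 to 42.0%). The higher share in DKO-severe was thus not resolved at equal depth.

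*Tcrg-C1* was found in 19 and 30 members (26.4% and 34.9%) and *Tcrg-C2* in 12 and 29 (16.7% and 33.7%). In 1-UMI cells *Tcrg-C2* was found in 5 of 20 in WT and 27 of 97 in DKO-severe (27.8%). These shares also lie within the members' intervals (8.92 to 27.3% and 23.9 to 44.7%). *Tcrg-C1* was found in 1 of 20 and 23 of 97 1-UMI cells (23.7% in DKO-severe), lower shares than in members. Any of the 3 constant genes was found in 26 of 72 WT members (36.1%) and 49 of 86 DKO-severe members (57.0%), against 1.67% and 4.85% of *Zbtb16*-negative cells. At equal depth the gamma constant genes were found in 14 of 43 WT members (32.6%, interval 19.1 to 48.5%) and 21 of 42 DKO-severe members (interval 34.2 to 65.8%). All 3 were found together in 5 WT and 13 DKO-severe members. As levels, log2 ratios of DKO-severe over WT were 0.67 for *Tcrg-C1*, 1.31 for *Tcrg-C2* and 1.51 (0.73 to 2.36) for *Tcrg-C4*. The gamma delta receptor list had 5 measured genes, all above 0 and 2 past 2-fold higher in DKO-severe (4.3% of all 4394 genes compared were), with a median of 0.93, and 1.22 without the cells that held a *Cntn5*, *Ntng1* or *Ralyl* UMI, against 1.12 in *Zbtb16*-negative cells. *Trgv2* was the gamma V segment found most often, in 9 and 25 members (12.5% and 29.1%), against 0.536% and 1.60%.

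The delta constant gene *Trdc* was found in no member of either mouse, which allows up to 4.99% and 4.20% by the exact interval. It was found in 65 WT (2.18%) and 24 DKO-severe (0.766%) *Zbtb16*-negative cells. The gamma transcripts in members thus stood beside *Trbc1* or *Trbc2* and without detected *Trdc*.

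**Figure D3:**
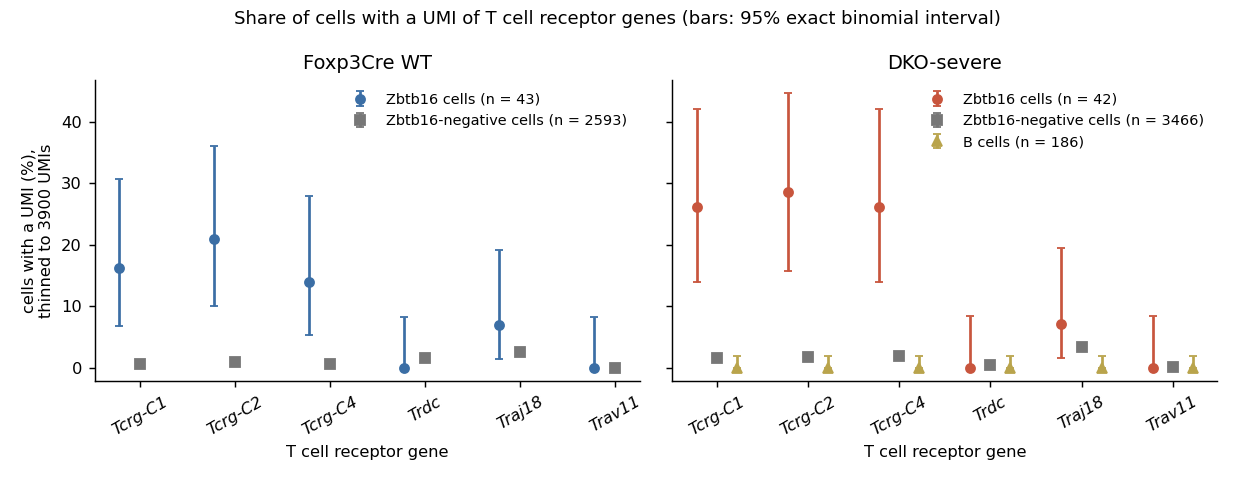
Share of cells (%) with a UMI of 6 T cell receptor genes after thinning to 3900 UMIs, in *Zbtb16* cells (43 in *Foxp3Cre* WT, 42 in DKO-severe), *Zbtb16*-negative cells and DKO-severe B cells; bars are 95% exact binomial intervals and the 12 WT B cells left after thinning are not drawn. The gamma constant genes stand above *Zbtb16*-negative cells in each mouse and above B cells in DKO-severe (*Tcrg-C4* at 14.0% and 26.2%). *Trdc* and *Trav11* are at 0 in *Zbtb16* cells.

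The members did not all hold the same transcripts. By a split made after their values were seen, 28 WT and 37 DKO-severe members had a UMI of *Tbx21*, the T-bet factor of the type 1 state, and 44 and 49 had none. Median depth was 5679 and 7682 UMIs with *Tbx21* and 6768.5 and 8185 without. *Xcl1* had 43 UMIs in the WT members with *Tbx21* and 26 in those without, and 36 and 17 in DKO-severe. *Il12rb2* had 31 and 19 UMIs in WT and 44 and 41 in DKO-severe, the second value over the larger number of cells each time. Of members with *Tbx21*, the chemokine transcript *Ccl5* was present in 24 of 28 in WT and 37 of 37 in DKO-severe. *Ccl5* was also common over all members, with a median of 2.5 UMIs per cell in WT and 10 in DKO-severe.

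Of 9 measured genes of the type 17 list, 3 are given here by the same split. The rest of the list is not given by it, so these 3 do not show a separate type 17 subset. *Il1r1*, an IL-1 receptor, had 25 UMIs in 8 WT members and 16 UMIs in 6 DKO-severe members, and none of these cells had a *Tbx21* UMI. *Blk*, a kinase of B cells and some IL-17 producing T cells, had 15 UMIs in 5 WT members and 27 in 8 DKO-severe members, again none with *Tbx21*. *Tmem176a*, often listed with that state, was found in 2 WT members with *Tbx21* (6 UMIs) and 13 without (45 UMIs). It was found in 24 DKO-severe members with *Tbx21* and 33 without, so in the DKO-severe mouse it was found on both sides of the split.

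*Il4*, the type 2 cytokine, was found in 24 WT members (33.3%) and 40 DKO-severe members (46.5%), against 0.837% and 7.34% of *Zbtb16*-negative cells and none of 14 and 0.465% of 215 B cells. Of the members with *Il4*, 13 of 24 in WT and 19 of 40 in DKO-severe also held *Tbx21*, against 28 of 72 and 37 of 86 over all members.

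Between genotypes, 189 of the 4394 genes (4.3%) were 2-fold or more higher in DKO-severe members and 48 (1.09%) were 2-fold or more lower, around a median log2 ratio of 0.03. In *Zbtb16*-negative cells the same genes gave 313 higher and 116 lower, around 0.10. Of the 189 higher genes 122 were also 2-fold or more higher in *Zbtb16*-negative cells, and of the 48 lower genes 10 were also lower. A summed level does not tell fewer cells with a transcript from less of it per cell, so cell counts are given beside the ratios. Gene lists take genes with 10 or more UMIs, and ratios from few UMIs carry more counting error. The share past 2-fold over all genes at that lower minimum is not given here, so list counts past 2-fold are a description only.

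A further set of values moved with genotype and touches these counts. *Cntn5*, *Ntng1* or *Ralyl*, neuronal genes that earlier results showed to be high in CD4 T cells of the DKO-severe mouse, had a UMI in 14 WT members (19.4%) and 23 DKO-severe members (26.7%). The shares were 10.8% and 57.6% in *Zbtb16*-negative cells and 21.4% and 11.2% in B cells. Without those members, 58 WT and 63 DKO-severe cells remained, and 77 of 3244 genes were 2-fold or more higher and 23 lower. Values without those cells are therefore given beside the main results. The members left out held more UMIs per cell on average than those kept, more so in DKO-severe. Values without them thus also leave out deeper cells, and the part of depth in them was not tested. Whether the transcripts came from those members or from other cells was not tested.

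*Gzmb* (ENSMUSG00000015437, chromosome 14, 56258838 to 56262260), the killer protease granzyme B, had the highest ratio of all ranked genes but *Ralyl*. It had 1 UMI in 1 of 72 WT members and 207 UMIs in 38 of 86 DKO-severe members, with at most 28 in a cell. The levels were 1.98 and 261 CPM. The log2 ratio, with counts under 3 taken as 3, was 5.45 (counting interval 4.54 to 12.35) 5.51 without the *Cntn5*, *Ntng1* or *Ralyl* cells and 4.43 when every cell was thinned. At equal depth *Gzmb* was found in 1 of 43 (2.33%, 0.0589 to 12.3%) and 19 of 42 members (45.2%, 29.8 to 61.3%).

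In *Zbtb16*-negative cells *Gzmb* was found in 1.98% and 9.74%, in Cd8-gated cells, chosen by a *Cd8a* or *Cd8b1* UMI, in 2.13% and 22.8%, and in B cells in 0 of 14 and 3.26% of 215. Its level was 4.23 and 69.4 CPM in *Zbtb16*-negative cells, a log2 ratio of 4.03 between genotypes, and 4.82 and 132 CPM in Cd8-gated cells. *Gzmb* was thus higher in DKO-severe in members, *Zbtb16*-negative cells and Cd8-gated cells. Within that mouse its share was higher in members than in these 2 sets and in B cells. In cells with 1 *Zbtb16* UMI it was found in 1 of 20 in WT and 44 of 97 in DKO-severe (45.4%, at 234 CPM). The share in DKO-severe members (44.2%) was near that of these 1-UMI cells, so a high *Gzmb* share was not particular to members. Other cytotoxic genes did not follow *Gzmb*. *Prf1*, perforin, had 8 and 19 UMIs (log2 ratio 0.59, -0.67 to 1.99), *Gzma* 2 and 4 UMIs, *Nkg7* 175 and 345 UMIs (0.32, 0.06 to 0.59) and *Ctsw* a log2 ratio of 0.06. The list's 5 measured genes had a median log2 ratio of 0.46, all 5 above 0 and 1 past 2-fold, against 0.03 over all genes and 0.72 for the list in *Zbtb16*-negative cells.

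The 38 DKO-severe members with *Gzmb* were set beside the 48 without, again after values were seen. Median depth was 7090 and 8474.5 UMIs. *Xcl1* had 39 UMIs in the first and 14 in the second, *Itga1* 75 and 26, and *Il4* was found in 26 of 38 and 14 of 48 cells. *Il2rb* stood at 766 and 304 CPM, *Clnk* at 327 and 78.9 CPM and *Ccl5* at 2165 and 821 CPM. *Gzmb* was thus found more among the members with several innate-like and type 1 transcripts. A gamma constant UMI was found in 24 of its 38 cells, near the 49 of 86 over all DKO-severe members.

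*Il2rb* was higher in DKO-severe members. Its UMIs per cell had a lowest, median and highest value of 0, 1 and 7 in WT and 0, 4 and 13 in DKO-severe, and it was found in 40 of 72 and 78 of 86 cells. The levels were 186 and 471 CPM, a log2 ratio of 1.34 (1.01 to 1.68) and 1.40 without the *Cntn5*, *Ntng1* or *Ralyl* cells, against 1.64 in *Zbtb16*-negative cells. At equal depth it was found in 15 of 43 WT members (34.9%, upper bound 50.9%) and 29 of 42 DKO-severe members (69.0%, lower bound 52.9%), and the intervals do not overlap. In cells with 1 *Zbtb16* UMI the 2 mice were close. *Il2rb* stood there at 406 CPM in 20 WT cells (80.0% with a UMI) and 442 CPM in 97 DKO-severe cells (90.7%). The difference between genotypes in members thus did not extend to these cells. *Il2ra* had a log2 ratio of 0.74, *Il2rg* of -0.27 and *Il15ra* of -1.75 (-3.29 to -0.37, 15 and 7 UMIs), so the chains of the IL-2 and IL-15 receptors did not stand in 1 direction.

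*Clnk*, an adaptor of NK and mast cell signalling, had 10 UMIs in 4 WT members and 134 in 39 DKO-severe members, a log2 ratio of 3.09 (2.17 to 4.18) and 4.28 without the *Cntn5*, *Ntng1* or *Ralyl* cells. *Serpina3f* (log2 ratio 2.24), *Gcnt2* (1.93) and *Tmem273* (1.46), genes that marked members in both mice, were higher too. The log2 ratios of the same genes were larger in *Zbtb16*-negative cells, at 3.25, 3.37 and 3.17, and that of *Clnk* was 1.62 there. *Plac8* stood at 1.34 and *Hivep3*, a zinc finger factor of NKT cell development, at 1.38, and at 1.67 and 1.04 without those cells.

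As summed levels, *Cxcr6*, *Il18r1* and *Xcl1* were lower. *Cxcr6* was found in 64 of 72 and 66 of 86 members, with a median of 3 and 2 UMIs per cell, and stood at 559 and 288 CPM (log2 ratio -0.96, -1.21 to -0.70; -0.51 without those cells), so it did not reach 2-fold. *Il18r1*, the IL-18 receptor, stood at 383 and 174 CPM, a log2 ratio of -1.14 (-1.47 to -0.82) and -0.72 without them. *Xcl1* stood at 137 and 66.7 CPM, a log2 ratio of -1.04 (-1.58 to -0.50) and -0.95 without them, but -0.43 when every cell was thinned. At equal depth its share of cells stood the other way, at 23.3% in WT (11.8 to 38.6%) and 28.6% in DKO-severe (15.7 to 44.6%). Its highest count in a cell was 14 in WT and 4 in DKO-severe.

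The core genes *Id2*, *Il12rb2*, *Klrb1c* and *Rora* differed by less than 2-fold. *Id2* had 1055 and 1098 CPM (log2 ratio 0.06, -0.10 to 0.22), *Il12rb2* 99.2 and 107 CPM (0.11, -0.41 to 0.64), *Klrb1c* 159 and 132 CPM (-0.26, -0.70 to 0.18) and *Rora* 385 and 304 CPM (-0.34, -0.62 to -0.06). Without the *Cntn5*, *Ntng1* or *Ralyl* cells the log2 ratio was 0.34 for *Id2*, 0.22 for *Il12rb2* and -0.084 for *Klrb1c*, and that of *Rora* was within 0.01 of 0. When every cell was thinned, *Il12rb2* stood at 0.75, with a UMI in 23.3% (11.8 to 38.6%) of members in WT and 40.5% (25.6 to 56.7%) in DKO-severe, and *Id2* stood at 0.58. *Kcnq5*, a potassium channel gene high in members, had a median of 9.5 and 13 UMIs per cell and a log2 ratio of -0.03. *Zbtb16* itself stood at 641 and 452 CPM, but its level depends on the limit that chose the cells. The innate-like programme list had 16 measured genes, of which 9 were above 0, 4 were past 2-fold higher and 2 lower, with a median of 0.11 (0.02 without those cells). The same list in *Zbtb16*-negative cells had a median of 1.09.

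Several of the other highest ratios were carried by 5 to 22 DKO-severe members. *Ralyl* stood at 5.61, *Alcam* at 5.31, *Penk* at 4.86, *Slc24a3* at 4.28, *Ntng1* and *Klf12* at 4.15 and *Pcsk1* at 4.01. One DKO-severe member held 69.3% of the *Penk* UMIs and 92.0% of the 87 *Fbn2* UMIs were in 1 cell, with *Fbn2* at 0 in WT (at least 4.20 higher on the log2 scale against 3 counts). With the cell of each genotype that held most of a gene's UMIs left out, *Penk* stood at 3.15 and *Fbn2* at 0.57, while *Ralyl* stood at 5.51, *Alcam* at 5.45, *Slc24a3* at 4.36, *Klf12* at 3.78 and *Ntng1* at 3.74. Without *Cntn5*, *Ntng1* or *Ralyl* cells the ratio was 1.77 for *Alcam*, -1.10 for *Slc24a3*, 0.05 for *Klf12* and 0.86 for *Pcsk1*.

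The 10 lowest genes were *Gm4258* (-1.87), *Rnf167* (-1.60), *Hdgfl3* (-1.58), *Isoc1*, *Pdlim1*, *Mettl23*, *Lysmd2*, *Dph6*, *Acyp1* and *Adam12* (-1.35). *Gm4258* had 123 UMIs in 44 WT members and 53 in 21 DKO-severe members. *Rnf167*, a ubiquitin ligase, had 50 UMIs in 36 and 26 in 21. Without those cells the 10 remained lower, from -1.90 for *Pdlim1* to -0.65 for *Adam12*.

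**Figure D4:**
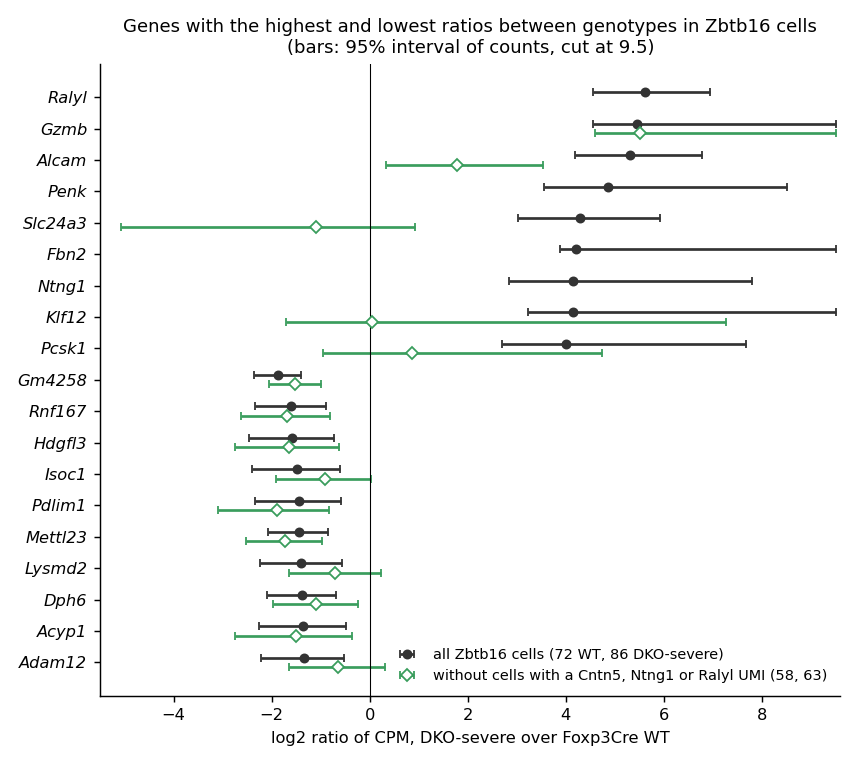
Log2 ratio of CPM, DKO-severe over *Foxp3Cre* WT, for 9 of the 10 highest and for the 10 lowest genes in all *Zbtb16* cells and, where a ratio could be formed, without cells holding a *Cntn5*, *Ntng1* or *Ralyl* UMI; bars are 95% intervals of the counts, drawn to 9.5 at most. *Gzmb* reads 5.45 and 5.51, *Alcam* 5.31 and 1.77, and *Slc24a3* 4.28 and -1.10.

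Gene groups were then taken as lists. The type 1 list (*Tbx21*, *Ifng*, *Cxcr3* and others, 10 measured) had a median of 0.18, with 7 above 0 and 1, *Xcl1*, past 2-fold lower, and 0.25 without the *Cntn5*, *Ntng1* or *Ralyl* cells. The NK receptor list (8 measured) had -0.06, and *Klra1* at -2.46 came from 3 WT cells and 1 DKO-severe cell. The type 2 list had -0.21 and 0.07 without those cells, and the type 17 list -0.49 (9 measured) and 0.44. The medians of both thus stood on the other side of 0 without them. In *Zbtb16*-negative cells the type 17 list stood at 2.24.

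The naive-state list had a median of -0.51, with 6 of 7 below 0 and *Lef1* and *Ccr7* at -1.19 (*Ccr7* at 0.03 when every cell was thinned), and -0.83 without those cells. It stood at -1.45 in *Zbtb16*-negative cells. *Lef1* (226 and 156 UMIs), *Tcf7* (log2 ratio -0.78) and *Id3* (-1.38, 28 and 17 UMIs) are factors of naive and memory T cells and stood lower in DKO-severe members. The memory and residence list had 0.82, with 9 of 12 above 0 and 6 past 2-fold higher, among them *Itgb1* (1.24), *Itga1* (1.14) and *Cd69* (1.09). When every cell was thinned, *Itga1* stood at -0.14. The list had 0.31 without those cells, with 1 past 2-fold, and *S100a6* went from 1.49 to -0.22.

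The T follicular helper list had a median of 0.91 with 8 of 9 above 0 and 4 past 2-fold higher, and the checkpoint list 1.34 with 5 of 5 above 0 and 3 past 2-fold. Without the *Cntn5*, *Ntng1* or *Ralyl* cells they stood at 0.06 and 0.15. *Ctla4* went from 3.72 to 0.63 and *Tox* from 1.34 to -0.20. In *Zbtb16*-negative cells those lists stood at 2.15 and 1.78. The cell cycle list had 1.69, with 5 of 6 past 2-fold, and 0.63 with 2 past 2-fold (*Birc5* and *Ube2c*) without those cells, against 2.32 in *Zbtb16*-negative cells. *Mki67* was found in 2 WT and 6 DKO-severe members, and its ratio of 1.70 was -0.23 without those cells. The recent activation list had 0.42, with 11 of 11 above 0 and 2 past 2-fold higher, and 0.02 without them.

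Cytokine receptor chains had a median of -0.12 (10 measured, 1 past 2-fold higher and 2 lower), E and Id proteins -0.47 (5 measured, 1 lower) and lineage factors -0.20 (11 measured, 1 higher and 1 lower). The TET and DNMT list had 0.01, with none of 6 past 2-fold. *Tet2* stood at 47.6 and 71.8 CPM (log2 ratio 0.59, -0.12 to 1.35) and *Tet3* at 105 and 91.9 CPM (-0.19, -0.72 to 0.35). The floxed exons are not given in the sources used here, so 3' counts do not show whether either allele was deleted, and the members were chosen without a *Foxp3* UMI.

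**Figure D5:**
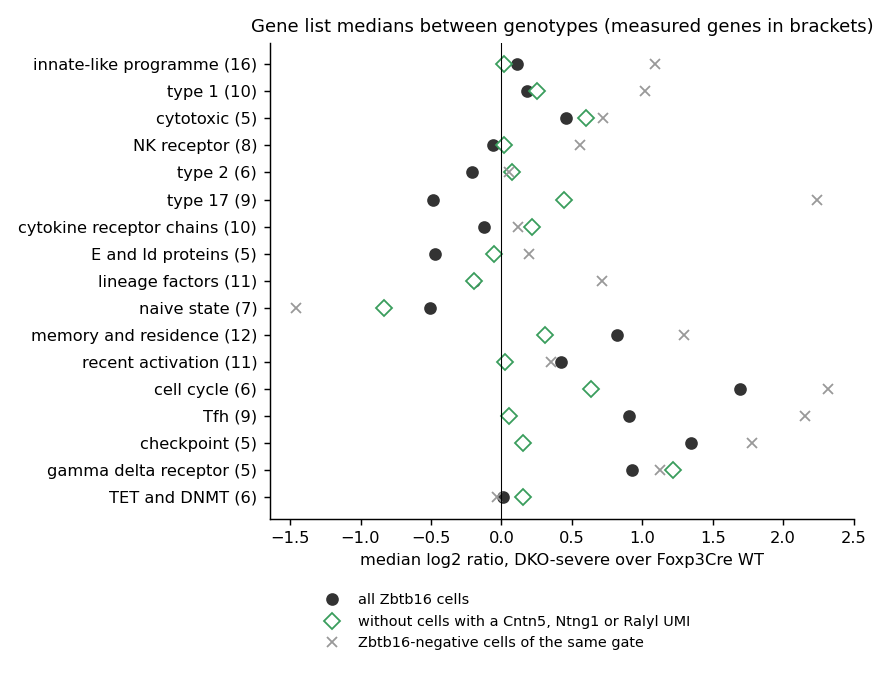
Median log2 ratio, DKO-severe over *Foxp3Cre* WT, over the measured genes of each list in all *Zbtb16* cells (72 and 86), in those without a *Cntn5*, *Ntng1* or *Ralyl* UMI (58 and 63) and in *Zbtb16*-negative cells. The checkpoint list reads 1.34, 0.15 and 1.78, and the innate-like programme 0.11, 0.02 and 1.09.

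Markers of other cells were then summed. Of 6 NK cell markers 3 (*Eomes*, *Klra8* and *Klra4*) had no UMI in either mouse, and the list summed to 21.8 CPM in WT and 21.4 in DKO-severe, against 32.7 and 75.6 in *Zbtb16*-negative cells. The B cell list summed to 151 and 263 CPM with *Ms4a1* at 0, against 362 and 525 CPM in *Zbtb16*-negative cells, and *Ighm* made up 127 and 142 CPM of it. The myeloid list summed to 91.2 and 193 CPM with *Adgre1* at 0, against 83.5 and 305. The granulocyte list summed to 69.4 and 322 CPM, against 88.9 and 231, and 1 DKO-severe member held 77.3% of the 97 *S100a8* and 80.6% of the 144 *S100a9* UMIs. The regulatory T cell list summed to 478 and 865 CPM with *Lrrc32* at 0, against 594 and 1523 CPM in *Zbtb16*-negative cells. Sums in members were thus the higher ones for the myeloid list in WT and the granulocyte list in DKO-severe, and the lower ones in the other cases. The part of the regulatory T cell list, and of the myeloid and B cell genes such as *Cd74* (17.9 and 94.5 CPM), in the differences between genotypes was not tested.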

How the data were processed

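The 2 deposited matrices, 1 per genotype, hold raw UMI counts, which the authors produced by running Cell Ranger 7.1.0 against mm10 on reads of a 10x 3' v3.1 library whose cells of 1 mouse per genotype carried hashtags 1 (WT) and 2 (DKO). Whether intronic reads were counted is not given in the sources used here. In the WT matrix, 3 barcodes with more counts of the other hashtag were left out. The members, gene lists, markers and split sets were chosen with earlier results of these data known.

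Counts were summed over members and scaled to 1000000. Log2 ratios take sums under 3 as 3, with an exact conditional interval, and lists use genes with 10 or more UMIs over both sums. Shares have Clopper-Pearson intervals and were repeated after thinning to 3900 UMIs. B cells had 2 or more *Cd79a* and no *Cd3* UMIs. Named genes are those of the lists, the 10 highest and 10 lowest ratios between genotypes and the 15 highest over *Zbtb16*-negative cells in both mice; receptor, immunoglobulin, haemoglobin and sex-linked genes were not ranked, and other names were chosen after their values were seen. A few list and ranked genes are not reported here and were left out of list medians. Doublets: Scrublet in scanpy 1.11.5 marked 0 barcodes at its automatic threshold and so did not work; none were removed, and the highest 6% of scores were removed only as an alternative. Python 3.11.15, NumPy 2.4.6 and SciPy 1.17.1 were used. Scripts were tested on simulated data. One alternative, leaving out for each gene the cell with most of its UMIs, was added after the data were seen. Windows came from GENCODE M21.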

Additional observations from a re-analysis of the deposited data

How the results depend on the processing

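No paired analysis was possible because the 2 deposited samples are an mRNA and a hashtag library of the same cells, with 1 mouse per genotype. Of the main values under alternatives 248 stayed within their limits and 22 moved. With 3 or more *Zbtb16* UMIs the shares were 0.372% in WT and 0.370% in DKO-severe, 106 genes were higher and 30 lower between genotypes, and 96 genes were below *Zbtb16*-negative cells in DKO-severe. Without thinning the shares were 1.03% and 1.27%. Removing cells with a *Cntn5*, *Ntng1* or *Ralyl* UMI gave shares of 0.587% in WT and 0.994% in DKO-severe, 77 higher and 23 lower genes, and list medians of 0.056 (T follicular helper), 0.15 (checkpoint), 0.023 (recent activation) and -0.23 (regulatory T cell). With no minimum of UMIs 793 genes were higher and 762 lower. With every cell thinned, 29 of 1091 genes were higher and 19 lower, and list medians were 0.10 (checkpoint), -1.33 (naive state) and -0.49 (regulatory T cell). With Cd8-gated cells as comparator, 39 genes were lower in DKO-severe members. Fewer genes reach 50 UMIs when cells are removed or thinned; the cause of the other moves was not tested.

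Among values of 2-fold or more, the direction turned without *Cntn5*, *Ntng1* or *Ralyl* cells for the B cell list (-0.21), *Cd74* (-0.076), *Il1r1* (0.050), *Mki67* (-0.23), *S100a6* (-0.22), *Slc24a3* (-1.10) and *Tox* (-0.20). Smaller values also turned without those cells, among them the type 17 list (0.44), *Il17rb* (0.55), *Pdcd1* (-1.17) and *Stmn1* (-0.98). Of values of 2-fold or more, the direction turned with every cell thinned for *Itga1* (-0.14), *Itga4* (-0.31), *S100a4* (-0.23), *S100a6* (-0.64), *S100a9* (-0.70) and *Tox* (-0.092). *Ccr7* came to 0.034 there, which is no difference in either direction. Most members had no V segment read.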

Other observations

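*Zbtb16* was also found outside the chosen cells. Among T cells with a *Foxp3* UMI and no *Cd8a* or *Cd8b1*, 0 of 143 in WT (upper bound 2.55%) and 9 of 522 in DKO-severe (1.72%, 0.791 to 3.25%) had 2 or more *Zbtb16* UMIs. Median depths were 4895 and 11207 UMIs. Among T cells with *Cd8a* or *Cd8b1* and no *Foxp3*, 16 of 3656 (0.438%, 0.250 to 0.710%) and 18 of 2171 (0.829%, 0.492 to 1.31%) had them, at median depths of 6365 and 9501. These depths differ, and the shares were not thinned. The conditions on *Foxp3*, *Cd8a* and *Cd8b1* kept these cells out of the members.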
